A study of Mus musculus with 13 samples.

Results

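The genes described here are 40 of the 23236 rows of 1 gene-level expression table: those that license, start and run DNA replication and those that supply its nucleotides. They were chosen by name, each a row whose gene symbol equals a listed member, and every one of the 40 had a row. They fall into 9 licensing genes, 6 genes of GINS and helicase activation, 8 polymerase and primase genes, 6 genes of the sliding clamp and its loader, 5 genes of Okazaki fragment maturation and single-strand binding, 4 nucleotide supply genes and the E2F regulators E2f1 and E2f2. The values are messenger RNA levels in C2C12, an established mouse myoblast line that divides in serum-rich medium and leaves the cell cycle to fuse into myotubes when serum is lowered. The compared libraries are RNA-seq of C2C12 labelled as the myoblast stage, 1 named siLinc-Yy1 and 1 named siNC. Read in the usual way, siLinc-Yy1 is a small interfering RNA against the long noncoding RNA Linc-Yy1 and siNC a negative control; the labels give neither its sequence, its dose nor the time of harvest. The labels give 13 samples in all, and the other 11 were not analysed here. Each condition is 1 library of 1 cell line, so every difference below is between these libraries, with no replicate spread and no test across replicates.

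DNA replication is prepared in G1, when the origin recognition complex, Cdc6 and Cdt1 load the ring-shaped Mcm2 to Mcm7 helicase onto origins. In S phase Cdc45 and the GINS complex join the ring to form the active helicase, and polymerases, the clamp and the ligase follow at the fork. Many of these genes are known targets of E2F transcription factors, which are released from the retinoblastoma proteins when a cell commits to divide. Myoblasts express them while they grow and lower them when they differentiate.

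The promoters of several members hold the letters that E2F factors bind, and a few are shown because they belong to the genes on which the expression results turn: Mcm5 and Mcm6, which were level between the libraries, Gins3 and E2f2, among the lowest, Rfc3, a clamp loader gene that was level, and Rpa3, the highest. Rpa3 has none of the 8-letter forms searched and is shown for contrast, though it holds TTGGCGC, 1 of those forms less its first T. Rfc4, also among the lowest, has none of the 8-letter forms either and is not shown. Each is 300 bases, from 250 before to 50 after the annotated start, taken from RefSeq on GRCm38.p6, 5′ to 3′ on the gene's strand, with E2F letters in capitals. E2f2 has more than 1 promoter entry, and the one with E2F letters is shown. Gene positions further on are those of the deposited table, on mm9, a different build.
Mcm5 (chr8:75109259-75109558, plus strand): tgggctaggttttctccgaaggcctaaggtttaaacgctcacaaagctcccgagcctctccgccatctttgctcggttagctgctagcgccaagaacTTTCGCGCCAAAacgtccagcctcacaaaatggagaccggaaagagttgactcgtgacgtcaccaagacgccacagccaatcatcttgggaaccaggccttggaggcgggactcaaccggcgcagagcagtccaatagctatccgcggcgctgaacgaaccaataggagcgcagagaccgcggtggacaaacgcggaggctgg
Mcm6 (chr1:128359656-128359955, minus strand): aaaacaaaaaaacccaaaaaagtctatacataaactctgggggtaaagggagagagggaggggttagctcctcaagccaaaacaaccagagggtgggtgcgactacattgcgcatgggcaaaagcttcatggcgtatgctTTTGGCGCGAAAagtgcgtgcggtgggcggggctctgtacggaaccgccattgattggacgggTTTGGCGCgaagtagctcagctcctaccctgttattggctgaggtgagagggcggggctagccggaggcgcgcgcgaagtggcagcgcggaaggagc
Gins3 (chr8:95633309-95633608, plus strand): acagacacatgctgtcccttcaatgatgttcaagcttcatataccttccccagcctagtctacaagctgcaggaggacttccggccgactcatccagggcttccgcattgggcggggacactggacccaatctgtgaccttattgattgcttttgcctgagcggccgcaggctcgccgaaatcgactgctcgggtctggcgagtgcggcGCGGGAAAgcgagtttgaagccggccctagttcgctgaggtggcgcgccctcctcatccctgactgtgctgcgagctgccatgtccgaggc
E2f2 (chr4:136172024-136172323, plus strand): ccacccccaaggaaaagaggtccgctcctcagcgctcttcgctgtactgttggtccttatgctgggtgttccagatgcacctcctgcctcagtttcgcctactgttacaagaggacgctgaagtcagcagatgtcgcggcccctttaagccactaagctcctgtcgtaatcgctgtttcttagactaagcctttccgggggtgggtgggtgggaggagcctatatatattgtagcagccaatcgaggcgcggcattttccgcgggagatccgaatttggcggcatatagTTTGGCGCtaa
Rfc3 (chr5:151651159-151651458, minus strand): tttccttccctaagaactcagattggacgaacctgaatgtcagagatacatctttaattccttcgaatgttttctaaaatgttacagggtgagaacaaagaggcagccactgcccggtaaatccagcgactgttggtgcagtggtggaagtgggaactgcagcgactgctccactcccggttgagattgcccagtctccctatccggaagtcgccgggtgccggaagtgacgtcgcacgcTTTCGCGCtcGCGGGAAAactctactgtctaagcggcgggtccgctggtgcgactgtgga
Rpa3 (chr6:8259092-8259391, minus strand): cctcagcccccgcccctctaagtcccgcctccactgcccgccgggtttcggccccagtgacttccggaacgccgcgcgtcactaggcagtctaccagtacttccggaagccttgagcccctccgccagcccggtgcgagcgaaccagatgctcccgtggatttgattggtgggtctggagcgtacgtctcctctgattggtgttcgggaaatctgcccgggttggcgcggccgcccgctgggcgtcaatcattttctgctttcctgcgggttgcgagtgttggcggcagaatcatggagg

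The letters searched for E2F were TTTCGCGC, TTTGGCGC, TTTCCCGC and TTTGCCGC on both strands, and overlapping matches were each counted. A promoter entry was found for 32 of the 40 members. Of these, 13 (40.6%) held E2F letters in at least 1 promoter, against 4.92% of 8218 expressed genes with a promoter entry and 2.605% of all 27025 genes with one, a gene counting once if any of its promoters held the letters. Counted per promoter, they were in 2.26% of all 32851 promoters of that length. By role, the letters were found in 6 of 7 licensing genes, 3 of 6 polymerase genes, 1 of 5 genes of the clamp and loader, 1 of 5 genes of Okazaki maturation and RPA, 1 of 3 genes of GINS and helicase activation, 1 of 2 E2F regulators and none of the 4 nucleotide supply genes. The 19 matches lay between 165 bases before and 40 bases after the start, and 5 genes had more than 1. In Mcm5, and at the upstream pair in Mcm6, the matches on opposite strands overlap, so that 1 run of capitals holds both. CCAAT, the letters of the CCAAT box that the factor NF-Y binds, stood on either strand in 20 of the 32 members (62.5%), against 43.4% of the expressed genes and 41.1% of all genes. The letters AAGATGGC, part of a Yy1 site, stood on either strand in 3 members, Mcm5, Mcm10 and Rpa2 (9.38%), against 5.43% of expressed genes and 3.19% of all genes. A shorter E2F search of 7 letters left off the first T. It matched 21 of the 32 members (65.6%) and 1646 of the 8218 expressed genes. Rpa3 and the nucleotide supply gene Rrm1, both without the 8-letter forms, were among the 21. All of these are matches of letters and were not tested as sites of binding. Starts without a promoter entry were not searched, so a gene without the letters here may hold them at another start.

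**Figure D1:**
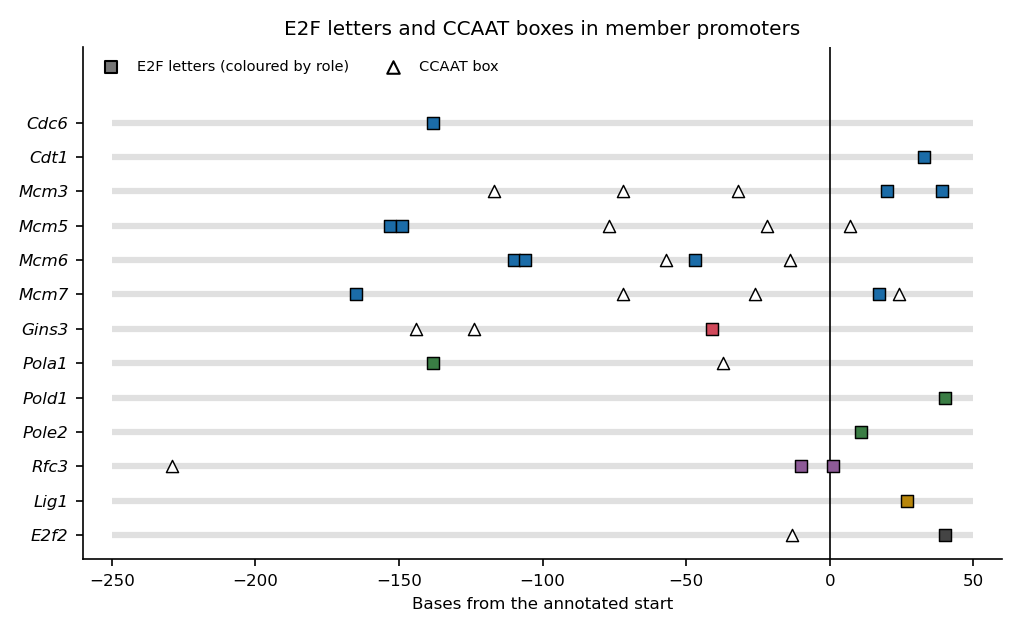
Positions of E2F letters (squares, coloured by role group) and CCAAT boxes (open triangles) in the 13 member promoters that hold E2F letters, plotted as the first base of each match against bases from the annotated start at 0. The grey bar is the stretch searched, and 6 of the 13 genes are licensing genes.

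Facts of the whole table limit what follows. Levels are in FPKM, which divides the fragments of a gene by its transcript length and by the size of the library, so they may be compared between genes. How library size was set is not given. Summed FPKM was 457250 in siLinc-Yy1 and 365650 in siNC, and values rescaled to equal sums are given further on. The row of the targeted RNA, lincYy1 (mm9 chr12:110028244-110029417), stood at 0.227 FPKM in siLinc-Yy1 and 0.360 FPKM in siNC, too low to check the label. Myoblast markers were present in both libraries, with a sum over 6 genes of 858 FPKM in siLinc-Yy1 and 660 FPKM in siNC, Des, a muscle intermediate filament gene, being the most abundant of them. Markers of myotubes were present too, 9 of 9 above 1 FPKM in both libraries and summing to 216 FPKM in siLinc-Yy1 and 174 FPKM in siNC; 5 of the 9 were higher in siLinc-Yy1. Their part in the values below was not tested. Of 13 markers of blood, endothelium, epithelium and neural cells, 12 were below 1 FPKM in both libraries, and the other, Cd14, stood at 9.16 FPKM in siLinc-Yy1 and 9.90 FPKM in siNC. The steps of low values in single-exon receptor genes gave about 42.6 M fragments for siLinc-Yy1 and 59.6 M for siNC.

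The replication genes were expressed at middle to high levels in both libraries and stood close together between them. Their mean over both libraries ran from 9.04 FPKM for Pola1 to 157 FPKM for Pcna, above 37.6% and 96.5% of the 11792 rows with a mean of at least 1 FPKM; all 40 members passed that filter. The difference is given as a log2 change of siLinc-Yy1 over siNC, taken after 1 FPKM was added to each value, a step that makes changes of low genes look smaller. By it, 21 members were above 0 and 19 below, with a median of 0.011, against a median of -0.021 over all rows, of which 54.6% were below 0. A limit of 0.32 on this scale was set for calling a gene lower or higher. Past it on the lower side in siLinc-Yy1 were 4 members, Gins3, E2f2, Rfc4 and Gins1, against a background of 4.12% of all rows. Past it on the higher side was 1 member, Rpa3, against a background of 7.79%. The lower share, 4 of 40, is above its background and the higher share, 1 of 40, below it, and 35 members lay inside the limits. These backgrounds are not matched for level. The 4 lower members had means of 9.39 to 14.9 FPKM, and 70.9% of all rows of 5 to 20 FPKM were below 0. Of the 4, Gins3 alone stayed past the limit after the subtraction of a running median described further on. No member differed by 1.5-fold on this scale, and none by 2-fold, a size reached by 0.178% of all rows on the lower side and 1.39% on the higher. The order of the members by level was nearly the same in both libraries, with a Spearman rho of 0.99 across the 40 genes.

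**Figure D2:**
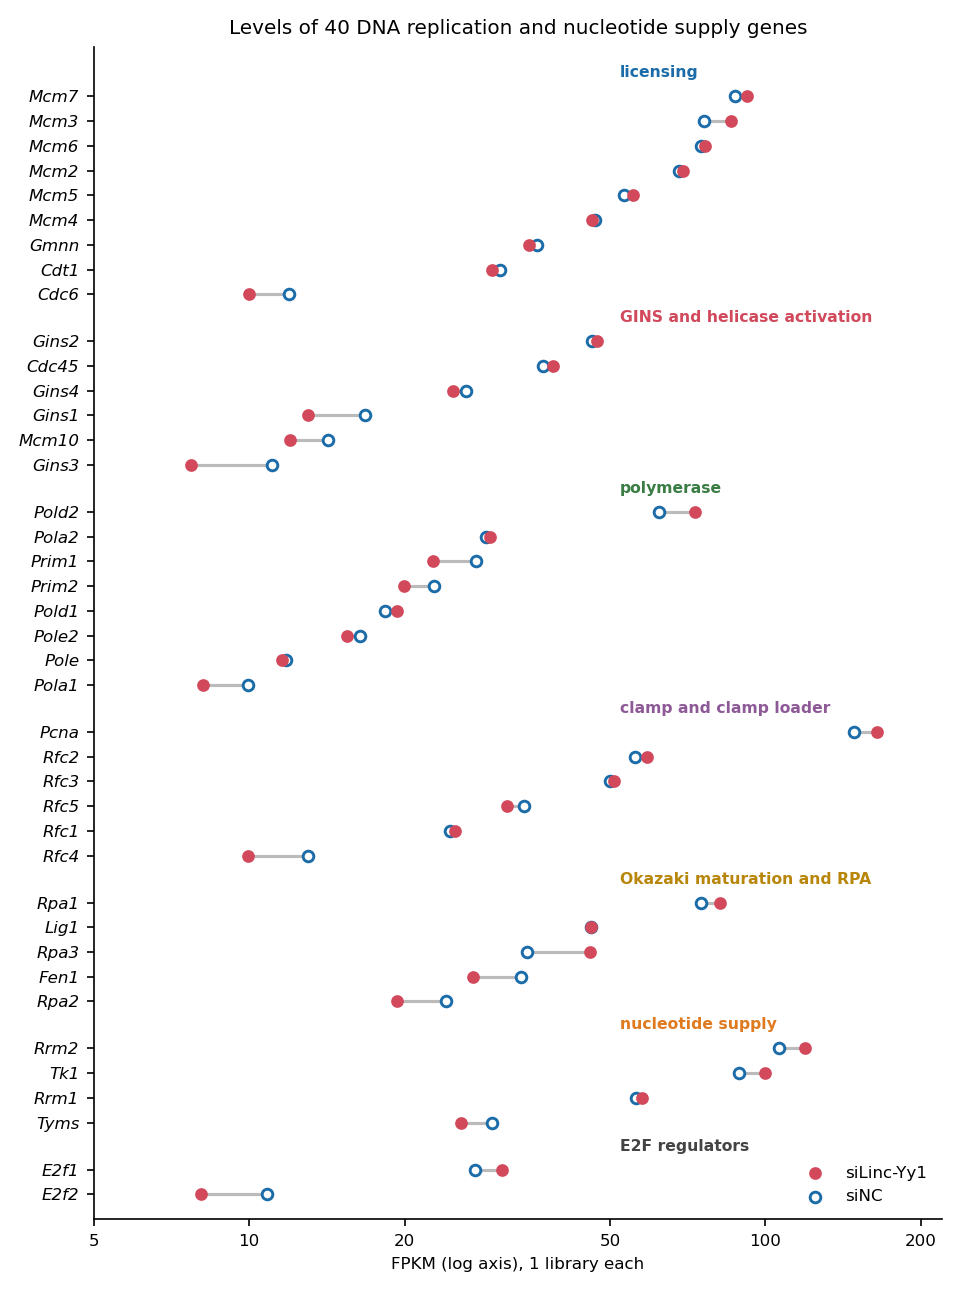
FPKM of each member on a log axis, siLinc-Yy1 as filled red points and siNC as open blue points, 1 library each, with genes grouped by role and sorted by level. Most pairs nearly touch, and the widest gaps are those of Gins3, E2f2, Rfc4, Gins1 and Rpa3.

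The Mcm2 to Mcm7 helicase genes were abundant, and their changes were the most even of any complex with at least 3 subunits here. Mcm7 measured 92.3 FPKM in siLinc-Yy1 and 87.3 FPKM in siNC, and its row shares a locus with the microRNA rows Mir25, Mir93 and Mir106b, which lie inside the gene. Mcm3 measured 85.6 FPKM in siLinc-Yy1 and 75.9 FPKM in siNC, the widest gap of the 6. Mcm6 stood at 76.5 FPKM in siLinc-Yy1 and 75.1 FPKM in siNC. The log2 changes of these 3 were above 0, as were those of the next 2. Mcm2 stood at 69.3 FPKM in siLinc-Yy1 and 68.2 FPKM in siNC. Mcm5 stood at 55.5 FPKM in siLinc-Yy1 and 53.2 FPKM in siNC. Mcm4, the lowest of the ring, measured 46.2 FPKM in siLinc-Yy1 and 46.8 FPKM in siNC. Thus 5 of the 6 were above 0 and 1 below, the log2 changes spanned -0.018 to 0.17, and the most abundant subunit exceeded the least by 2.00 times in siLinc-Yy1 and 1.87 times in siNC.

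The loaders and the inhibitor of licensing were less abundant than the ring. Cdc6, the ATPase that helps load the ring, measured 9.97 FPKM in siLinc-Yy1 and 12.0 FPKM in siNC, a log2 change of -0.24. Cdt1, which brings Mcm2 to Mcm7 to the origin, measured 29.5 FPKM in siLinc-Yy1 and 30.6 FPKM in siNC. Gmnn, or geminin, which binds Cdt1 and blocks a second round of loading, measured 34.8 FPKM in siLinc-Yy1 and 36.1 FPKM in siNC. The log2 changes of Cdt1 and Gmnn were -0.048 and -0.051, and the counting interval of each, described further on, held a ratio of 1. None of the 9 licensing genes passed the limit of 0.32, and their median log2 change was 0.023.

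The GINS subunits, which form 1 complex with Cdc45 and the Mcm ring, were unequal in level and in change. Gins3 (mm9 chr8:98157459-98168959) measured 7.73 FPKM in siLinc-Yy1 and 11.1 FPKM in siNC, a ratio of 0.699 and a log2 change of -0.47, the lowest of all 40 members. Gins1 (mm9 chr2:150735330-150757016) measured 13.0 FPKM in siLinc-Yy1 and 16.8 FPKM in siNC, a ratio of 0.775 and a log2 change of -0.34. The other subunits were close between the libraries. Gins4 measured 24.9 FPKM in siLinc-Yy1 and 26.4 FPKM in siNC. Gins2 measured 47.3 FPKM in siLinc-Yy1 and 46.1 FPKM in siNC, in a row that shares its locus with Gse1. The order Gins3, Gins1, Gins4, Gins2 held in both libraries, and the highest subunit exceeded the lowest by 6.12 times in siLinc-Yy1 and 4.17 times in siNC. Cdc45, their partner at the helicase, measured 38.7 FPKM in siLinc-Yy1 and 37.0 FPKM in siNC. Mcm10, which is needed to activate the assembled helicase, measured 12.0 FPKM in siLinc-Yy1 and 14.2 FPKM in siNC, a log2 change of -0.23. The 6 genes had a median of -0.16, the lowest of the 7 role groups, with 4 below 0 and 2 of these past the limit.

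None of the 8 polymerase and primase genes passed the limit of 0.32, and their median was -0.050. The alpha-primase complex, which lays the primers, has 4 subunits among them. Pola1, its catalytic polymerase subunit, measured 8.14 FPKM in siLinc-Yy1 and 9.95 FPKM in siNC. Prim1, the catalytic primase, measured 22.7 FPKM in siLinc-Yy1 and 27.5 FPKM in siNC. Prim2, the large primase subunit, measured 19.9 FPKM in siLinc-Yy1 and 22.8 FPKM in siNC. Their log2 changes were -0.26, -0.27 and -0.18, whereas Pola2, the accessory subunit, was at 0.029, with 29.3 FPKM in siLinc-Yy1 and 28.7 FPKM in siNC. For the leading-strand polymerase epsilon, Pole, the catalytic subunit, measured 11.6 FPKM in siLinc-Yy1 and 11.8 FPKM in siNC. Pole2, its partner, measured 15.5 FPKM in siLinc-Yy1 and 16.4 FPKM in siNC. Of the epsilon subunits that are not members, Pole3 measured 82.4 FPKM in siLinc-Yy1 and 82.6 FPKM in siNC, and Pole4 was past the limit on the lower side at -0.35. For the lagging-strand polymerase delta, Pold1, the catalytic subunit, measured 19.3 FPKM in siLinc-Yy1 and 18.3 FPKM in siNC. Pold2 measured 73.2 FPKM in siLinc-Yy1 and 62.2 FPKM in siNC, a log2 change of 0.23. The Pold2 row shares its locus with Aebp1, which stood at 110 FPKM in siLinc-Yy1 and 85.3 FPKM in siNC, so the division of reads between them is uncertain. Of the delta subunits that are not members, Pold3 was at -0.065, with 21.0 FPKM in siLinc-Yy1 and 22.0 FPKM in siNC, and Pold4 was past the limit on the higher side at 0.48.

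Pcna, the sliding clamp that holds the polymerase on DNA, was the most abundant member, with 165 FPKM in siLinc-Yy1 and 149 FPKM in siNC. Its loader RFC was uneven. Rfc4 (mm9 chr16:23107552-23127803) measured 9.96 FPKM in siLinc-Yy1 and 13.0 FPKM in siNC, a log2 change of -0.35. Its row shares a locus with Eif4a2, a translation initiation factor gene at 57.6 FPKM in siLinc-Yy1 and 52.4 FPKM in siNC, and with the small nucleolar RNAs Snora81 and Snord2, so its value is uncertain. The other 4 subunits were nearly level. Rfc2 measured 58.9 FPKM in siLinc-Yy1 and 55.8 FPKM in siNC. Rfc3 measured 50.8 FPKM in siLinc-Yy1 and 49.9 FPKM in siNC. Rfc1, the large subunit, measured 25.1 FPKM in siLinc-Yy1 and 24.4 FPKM in siNC. These 3 were above 0 by at most 0.076 on the log2 scale, while Rfc5, with 31.6 FPKM in siLinc-Yy1 and 34.1 FPKM in siNC, was at -0.10. The median of the 6 genes was 0.030.

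The RPA trimer, which coats single-stranded DNA, had the widest span of changes of these 3 complexes: RPA, GINS and the Mcm ring. Rpa3, the smallest subunit (mm9 chr6:8205936-8209141), measured 45.7 FPKM in siLinc-Yy1 and 34.5 FPKM in siNC, a ratio of 1.32 and a log2 change of 0.39, the highest of all members. Rpa2, the middle subunit, measured 19.4 FPKM in siLinc-Yy1 and 24.0 FPKM in siNC, a log2 change of -0.30. Rpa1, the large subunit, measured 81.7 FPKM in siLinc-Yy1 and 74.9 FPKM in siNC, a log2 change of 0.12. Rpa3 alone of the trimer passed the limit, and the changes of the subunits covered a span of 0.69 on the log2 scale, against 0.50 in GINS and 0.19 in the Mcm ring. Okazaki fragments are finished by the flap nuclease Fen1 and the ligase Lig1. Fen1 measured 27.2 FPKM in siLinc-Yy1 and 33.6 FPKM in siNC, a log2 change of -0.30. Lig1 measured 46.0 FPKM in both libraries, in a row that shares its locus with 6330408A02Rik.

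None of the 4 nucleotide supply genes passed the limit of 0.32. Rrm2, the small subunit of ribonucleotide reductase, which limits the making of deoxynucleotides in S phase, measured 119 FPKM in siLinc-Yy1 and 106 FPKM in siNC. Rrm1, the large subunit, measured 57.7 FPKM in siLinc-Yy1 and 56.2 FPKM in siNC. Tk1, the cytosolic thymidine kinase of the salvage route, measured 99.9 FPKM in siLinc-Yy1 and 89.0 FPKM in siNC, in a row that shares its locus with Afmid. Tyms, which makes thymidylate anew, measured 25.7 FPKM in siLinc-Yy1 and 29.5 FPKM in siNC. Thus 3 of 4 were above 0, and the median of 0.10 was the highest of the 7 role groups.

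Of the E2F activators, E2f2 was past the limit on the lower side and E2f1 inside it. E2f2 (mm9 chr4:135728309-135751971) measured 8.05 FPKM in siLinc-Yy1 and 10.8 FPKM in siNC, a ratio of 0.745 and a log2 change of -0.38. E2f1 measured 30.8 FPKM in siLinc-Yy1 and 27.4 FPKM in siNC, a log2 change of 0.17. E2f3, the other activator and not a member, measured 7.58 FPKM in siLinc-Yy1 and 9.15 FPKM in siNC, a log2 change of -0.24. The sum of E2f1 and E2f2 was 38.9 FPKM in siLinc-Yy1 and 38.2 FPKM in siNC.

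The counting error can be estimated from the depth for an assumed length of transcript. For every 1 kb of transcript, 1 FPKM corresponds to about 42.6 fragments in siLinc-Yy1 and 59.6 in siNC. At 1 kb, Gins3 rested on 329 fragments in siLinc-Yy1 and 659 in siNC, and the exact (Clopper-Pearson) 95% interval of its ratio was 0.610 to 0.798. The interval was 0.652 to 0.851 for E2f2, 0.697 to 0.861 for Gins1, 0.679 to 0.864 for Rfc4 and 1.24 to 1.41 for Rpa3. By this measure 13 members lay below 1, against a background of 17.7% of all rows, and 10 above 1, against a background of 23.1%. For 17 the interval held 1. These backgrounds are not matched for level. They include rows down to a mean of 1 FPKM, which rest on fewer fragments, whereas the lowest member mean was 9.04 FPKM. The shares of members and of all rows are therefore not directly comparable. The transcript lengths were not used here, so a longer transcript has a narrower interval and a shorter one a wider. These intervals leave out the spread between cultures and libraries, which a single library per condition cannot give. They also leave out the division of reads between rows that share a locus, as for Rfc4.

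**Figure D3:**
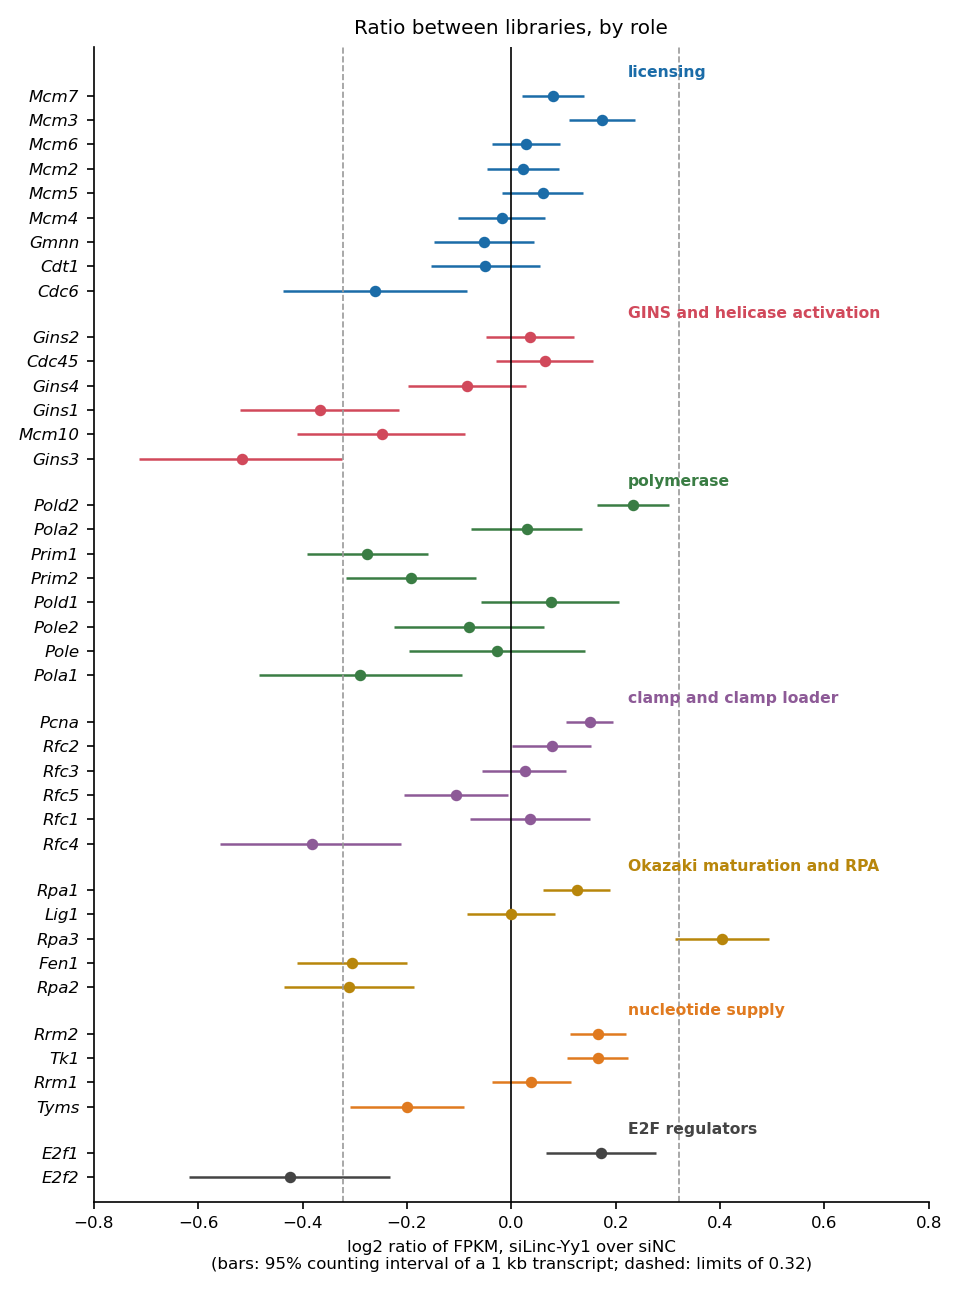
Log2 ratio of FPKM, siLinc-Yy1 over siNC with nothing added, for each member by role, with the 95% counting interval of a 1 kb transcript as bars and the limits of 0.32 as dashed lines. The ring genes and most clamp loader genes sit near 0, Gins3, E2f2, Rfc4 and Gins1 to the left of the lower limit and Rpa3 to the right of the upper.

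No member of the 40 was called in the authors' deposited table, against a background of 1.45% of all rows. In the authors' deposited table the unadjusted p was below 0.05 for 3 members, Gins3 (0.00745), E2f2 (0.0187) and Rpa3 (0.0361), or 3 of 40 against a background of 7.09%. The lowest q-value of a member in the authors' deposited table was 0.215, that of Gins3, and 30 of the 40 were above 0.9. Dividing each log2 ratio by the normal score of its p in the authors' deposited table gives the error that their test assigned. For 37 members this error was 0.18 to 0.23 on the log2 scale, per unit of normal score. It is not the half-width of an interval and cannot be set beside the counting intervals directly. It was 0.75 for Rfc4, 0.73 for Pold2 and 0.30 for Gins2. These 3 share a locus with another gene, as do Mcm7, Lig1 and Tk1, whose errors were 0.22, 0.21 and 0.20. Rfc4, the third lowest by its change, had a p of 0.611 in the authors' deposited table.

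The change of the members followed their level. All 13 members of at least 50 FPKM were above 0, with a median of 0.079, and 9 of the 10 members of 5 to 20 FPKM were below 0, with a median of -0.25. The 17 members of 20 to 50 FPKM had a median of -0.048, with 10 below 0. All rows showed such a slope, with medians of 0.19 for 1467 rows of 50 to 200 FPKM, 0.026 for 2735 rows of 20 to 50 FPKM and -0.071 for 4651 rows of 5 to 20 FPKM. In each band most members lay under the median of all rows, 12 of 13 in the highest, 11 of 17 in the middle and 8 of 10 in the lowest. Across the 40 genes the Spearman rho of change with level was 0.77, and across all rows it was 0.47. The value for all rows takes in rows down to a mean of 1 FPKM, whereas the lowest member mean was 9.04 FPKM. The rhos are therefore not directly comparable. Genes of the same libraries are not independent replicates.

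**Figure D4:**
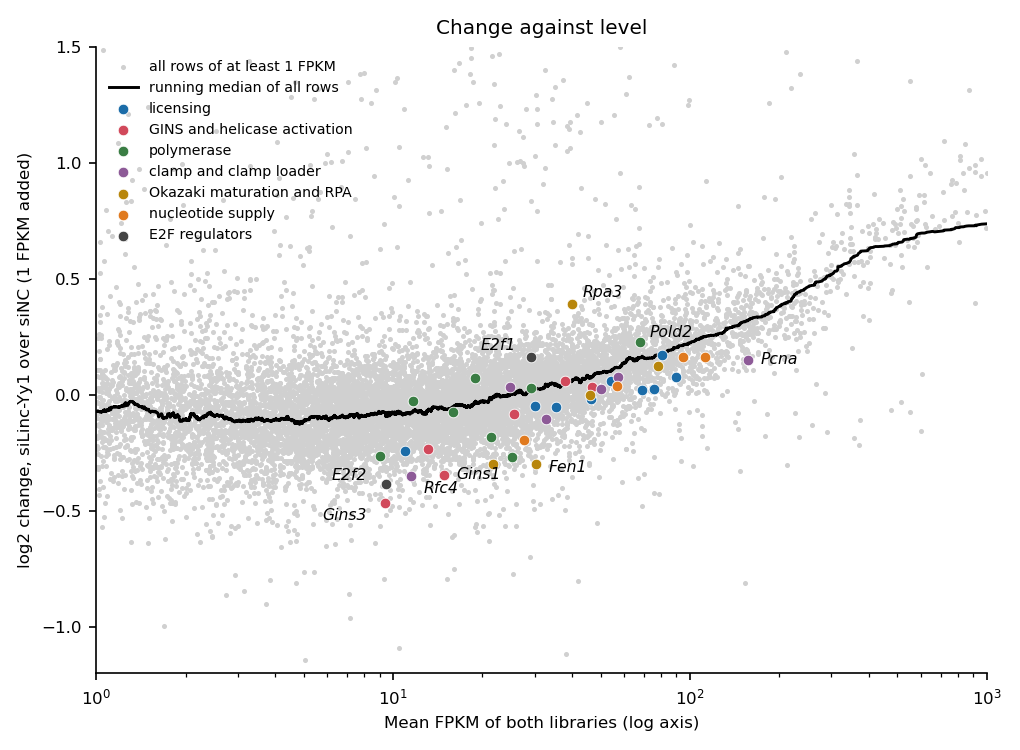
Log2 change (1 FPKM added) against mean FPKM on a log axis, for all 11792 rows of at least 1 FPKM (grey; 93 lie outside the plotted range), their running median (line) and the 40 members coloured by role. Most members lie under the line at their level; Rpa3 stands above it and Gins3, E2f2 and Fen1 well below.

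A running median of all rows in order of level was therefore subtracted from each change. After this step the Spearman rho of change with level was 0.0077 across all rows but still 0.33 across the 40 genes. The step thus left part of the members' slope in place. With the running median taken off, 32 of the 40 members were below 0, against a background of 49.7% of all rows, and the median member stood at -0.087. All 9 licensing genes and all 4 nucleotide supply genes were below 0, with medians of -0.098 and -0.084. Mcm2, Mcm6 and Mcm7 stood at -0.14, -0.14 and -0.13, and Pcna, which is higher in siLinc-Yy1 before this step, at -0.17. The medians were -0.13 for GINS and helicase activation, -0.11 for the clamp and loader, -0.073 for Okazaki maturation and RPA and -0.0036 for the polymerases, whose genes were 4 above 0 and 4 below. Past the limit after this step were Gins3 at -0.39 and, barely, Fen1 at -0.32, both lower, against a background of 2.43%. Past it on the higher side was Rpa3 at 0.33, against a background of 4.88%. E2f1 stood at 0.15, and no other member was above 0.11.

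Other genes of the pathway were also mostly below rows of their level. Of 99 further genes listed for origin recognition, fork function, chromatin assembly, nucleotide synthesis and the E2F and Rb family, 98 had rows, all past the filter. Of these 5 were past the limit on the lower side and 1 on the higher, a share of the lower ones close to the background of 4.12%, and the median was -0.088. Less the running median, 74 of the 98 were below 0, with a median of -0.12. The lowest among those of at least 5 FPKM were Hells, a chromatin remodeller that supports DNA methylation, Dscc1, part of an alternative clamp loader, Pole4, an accessory subunit of polymerase epsilon, and Orc2, of the origin recognition complex. Hells measured 10.3 FPKM in siLinc-Yy1 and 14.1 FPKM in siNC, and Dscc1 measured 5.12 FPKM in siLinc-Yy1 and 6.88 FPKM in siNC. Pole4 measured 7.76 FPKM in siLinc-Yy1 and 10.1 FPKM in siNC, and Orc2 measured 10.3 FPKM in siLinc-Yy1 and 12.7 FPKM in siNC. At the other end stood Pold4, the smallest subunit of polymerase delta, with 111 FPKM in siLinc-Yy1 and 79.3 FPKM in siNC. Nme2, a nucleoside diphosphate kinase, measured 315 FPKM in siLinc-Yy1 and 257 FPKM in siNC, and after subtraction of the running median it turned to -0.21. Atic, of purine synthesis, measured 71.8 FPKM in siLinc-Yy1 and 59.9 FPKM in siNC, and Ssbp1, which binds single-stranded DNA in mitochondria, 46.3 FPKM in siLinc-Yy1 and 38.5 FPKM in siNC. No gene of the 98 was called in the authors' deposited table, against 1.45% of all rows, and the unadjusted p was below 0.05 there for 6 of them, a share close to the 7.09% of all rows.

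**Figure D5:**
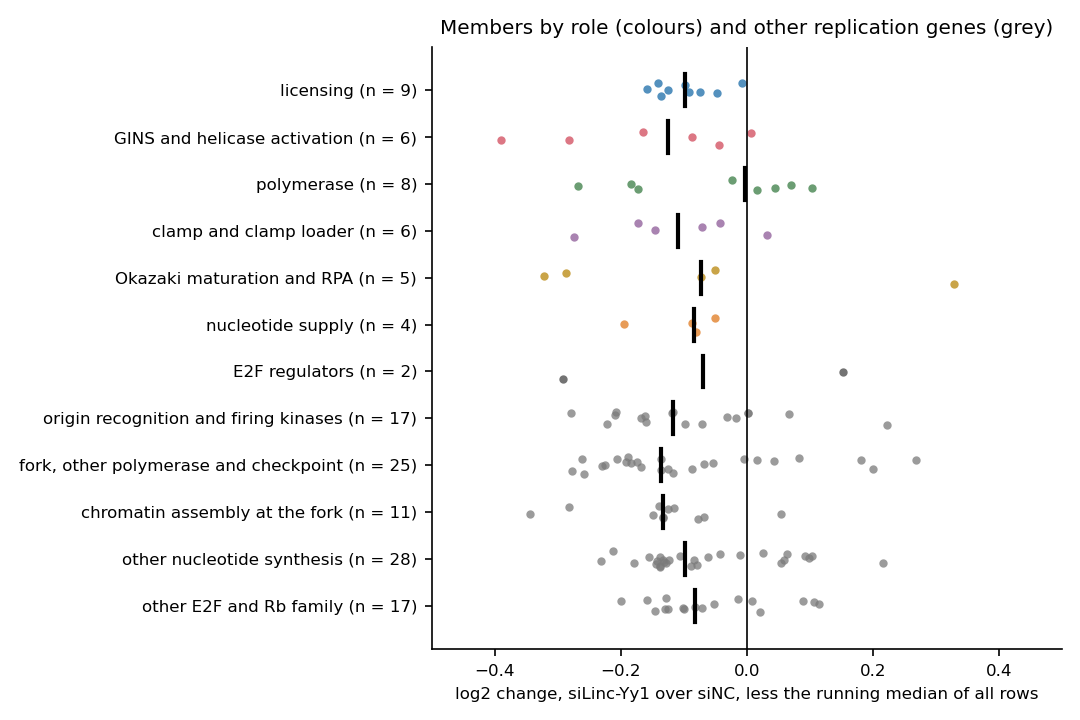
Log2 change less the running median of all rows, 1 point per gene, for the 7 role groups of the members (coloured) and 5 lists of other replication genes (grey), with the list median as a black bar. Every median lies at or below 0, from -0.0036 in the polymerases to -0.14 in fork, other polymerase and checkpoint genes.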

How the data were processed

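RNA selected for poly(A), per the labels, was sequenced from C2C12 cells, and 2 libraries with 1 per condition were compared. The authors estimated FPKM per gene and condition and tested each row, giving a p-value and a q-value, per the file headers. TopHat2 2.0.4, Cufflinks 2.1.1, build mm9 and Cuffdiff 2.0.4 are named in the submitters' processing notes. How the libraries were scaled, which annotation was used and whether strand counted is not given in the sources used here. The table came as 2 identical copies, 1 of which was read, and its FPKM columns were assigned to siNC and siLinc-Yy1 in the order in which the header names the conditions. Starts are given 1-based, since end minus start equalled the RefSeq hairpin length in 206 of 208 microRNA rows.

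The log2 change used a pseudocount of 1 FPKM over the 11792 rows whose mean reached 1 FPKM, and 0.32 on the log2 scale as the limit. The running median took 150 rows on each side. With 1 library per condition no p-value, SD or SE was computed. Depth came from single-exon receptor rows, of which 59.6% (siLinc-Yy1) and 64.4% (siNC) were whole fragments within 0.02 if the full row length is the divisor; a count test was not run. Intervals cover counting error only. The members, lists and the rule for named genes (all members, then the 4 highest and 4 lowest other pathway genes of at least 5 FPKM) were chosen with earlier results of these data known. Pole3, Pold3 and E2f3 fall outside that rule and were named after their values were seen. The steps for the log2 change, the running median and the depth were tried on simulated fragments. That simulation held counting error alone, so it says nothing of the spread between cultures or libraries. Python 3.11.15, pandas 2.3.3, NumPy 2.4.6, SciPy 1.17.1 and matplotlib 3.10.9 were used. Alternatives were pseudocounts of 0.1 and 5 FPKM, other filters, rescaling to equal sums, centring, status OK alone, folds of 1.5 and 2 and the calls in the authors' deposited table.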

Additional observations from a re-analysis of the deposited data

How the results depend on the processing

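Centring on the median of all rows, no filter, status OK alone and leaving out the 6 members that share a locus (added after seeing the data) moved no count by over 1.5 times and no median by more than the counting interval of a 1 kb transcript. Without those 6, however, the median of the members went from 0.011 to -0.022, below 0 and close to the -0.021 of all rows. None of the 40 members' changes past the limit changed sign under any alternative. Rescaling to equal summed FPKM shifted every value down, the median of all rows to -0.31, of the members to -0.31 and of the wider pathway to -0.40. Relative to that shift the members' median stayed close to that of all rows, and the role medians became -0.30 for licensing, -0.46 for GINS and helicase activation, -0.35 for the polymerases, -0.28 for the clamp and loader, -0.32 for Okazaki maturation and RPA, -0.22 for nucleotide supply and -0.41 for the E2F regulators. Rows past the limit of 0.32 on the lower and higher side were then 5483 and 353, against 486 and 919 at the authors' scaling, members 19 and 0, and wider pathway genes 63 and 0; Rpa3 alone of the members stayed above 0. With the running median subtracted, all rows gave 287 lower and 575 higher, members 2 lower, and the wider pathway 1 lower and 0 higher, while the medians of licensing (-0.098), the clamp and loader (-0.11) and nucleotide supply (-0.084) turned below 0. At a fold of 1.5, 61 rows were lower and 387 higher, and at a fold of 2, 21 and 164, with 0 members and 0 wider pathway genes in either direction at both. The authors' deposited table called 27 of these rows lower and 144 higher, with 0 members and 0 wider pathway genes. A pseudocount of 0.1 FPKM gave 854 rows and 9 wider pathway genes lower. A pseudocount of 5 FPKM gave 116 rows, 1 member and 0 wider pathway genes lower. A mean of at least 5 FPKM left 229 rows and 3 wider pathway genes lower. No paired analysis was possible because each condition has 1 library, and for the same reason no library could be left out. For members near 10 FPKM, counting error alone spans about 0.19 on the log2 scale on each side at 1 kb of transcript, so changes of that size are not resolved there. Changes past 0.19 are not thereby resolved. In the authors' test, Cdc6 at -0.24 and Pola1 at -0.26 had unadjusted p of 0.146 and 0.106. Gins3 and E2f2, with larger changes, had p of 0.00745 and 0.0187 in that test. By its error, p of 0.05 took a fold of 1.28 for Cdc6, Pola1 and E2f2 and 1.30 for Gins3.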

Other observations

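The subunits of each replication complex kept their order of level in both libraries in 8 of 8 complexes. In 7 of 8 the ratio of the highest to the lowest subunit was larger in siLinc-Yy1. All rows showed a slope in that direction, with median changes of 0.19 at 50 to 200 FPKM and -0.071 at 5 to 20 FPKM. Its part in these ratios was not tested. Polymerase epsilon, polymerase delta and ribonucleotide reductase count as complexes of 2 genes here. The RFC and delta ratios rest on Rfc4 and Pold2, whose rows share a locus with other genes and are uncertain. The GINS ratio rests on Gins2, whose row shares a locus with Gse1, and the Mcm ring ratio on Mcm7, whose row shares a locus with microRNA rows. In 3 polymerases the catalytic subunit had a lower FPKM than the accessory subunit among the members, a comparison picked after the values were seen. Outside the members, Pole3 was above Pole, and Pold3 and Pold4 were above Pold1. Pole4 was below Pole, at 7.76 FPKM in siLinc-Yy1 and 10.1 FPKM in siNC, against 11.6 FPKM and 11.8 FPKM for Pole. Pola1 stood at 8.14 FPKM in siLinc-Yy1 and 9.95 FPKM in siNC, against Pola2 at 29.3 FPKM in siLinc-Yy1 and 28.7 FPKM in siNC. Pold2 exceeded Pold1 by 3.79 times in siLinc-Yy1 and 3.40 times in siNC, and Pole2 exceeded Pole by 1.34 times in siLinc-Yy1 and 1.39 times in siNC. Ribonucleotide reductase showed the small subunit above the large one, with Rrm2 over Rrm1 at 2.07 times in siLinc-Yy1 and 1.89 times in siNC.

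Members with and without E2F letters in their promoters had changes of overlapping range. The 13 with the letters had a median log2 change of 0.00029, from -0.47 for Gins3 to 0.17 for Mcm3, and 12 of them were below 0 after the running median was subtracted. The 19 without had a median of 0.035, from -0.35 for Rfc4 to 0.39 for Rpa3, and 13 of them were below 0 after that step. The split used the 8-letter forms, and some of the 19, Rpa3 among them, hold a 7-letter form. The difference between the members with and without the letters was not tested.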
